A study of Mus musculus with 15 samples.

Results

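The genes followed here are 7 S100 genes (S100a1, S100a4, S100a6, S100a8, S100a9, S100a10 and S100a11) and 3 annexin genes (Anxa1, Anxa2 and Anxa5), measured in tumor-associated macrophages (TAMs). They were chosen by gene symbol, as 10 rows of a table of 55335 genes. S100 proteins are small proteins with a pair of EF-hand calcium-binding motifs, and most of them act as dimers inside cells, at membranes or after release. Annexins are a second calcium-dependent family that binds acidic phospholipids, and several annexins pair with an S100 dimer, as annexin A2 does with S100A10. In myeloid cells, S100A8 with S100A9 is known as an abundant neutrophil and monocyte product that signals danger, and annexin A1 is known for damping inflammation through formyl peptide receptors.

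RNA-seq was performed on TAMs of C57BL/6 mice that all carried an orthotopic hepatocellular carcinoma (HCC), grown for 3 weeks after Hepa1-6 hepatoma cells expressing luciferase had been injected into the left liver lobe. The hepatoma cells had been infected with a control lentivirus (control group), with a lentivirus for miR-144 (miR-144 group) or with a lentivirus for miR-451a (miR-451a group), and each group had 5 samples. The infection was thus of the tumor cells, and miRNA levels in the macrophages were not examined here. TAMs were sorted by flow cytometry with antibodies to CD11b and to the macrophage surface protein that Adgre1 encodes. The age of the mice is not given in the sources used here, and nothing says whether a sample was 1 mouse or a pool, so p-values measure the spread between samples. A figure legend of the study gives fewer replicates for RNA-seq than were deposited, and all deposited samples were used. Values are FPKM (fragments per kilobase of transcript, scaled to the mapped fragments of a sample), so levels of different genes are compared per length.

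The members are short genes that lie close together in part. In GENCODE M21 (GRCm38), 11 S100 genes span 184.7 kb on chromosome 3 (90511034 to 90695721), from S100a1 to S100a9, and 5 of the 11 had a mean of at least 1 FPKM. S100a11 and S100a10 lie in a second stretch of 44.2 kb (93520488 to 93564643) on the same chromosome. Anxa5 is also on chromosome 3 (36448923 to 36475894, minus strand), Anxa2 on chromosome 9 (69453620 to 69491795, plus strand) and Anxa1 on chromosome 19 (20373428 to 20390944, minus strand). S100a1 (90511034 to 90514392, minus strand) and its neighbor S100a13 point away from each other, with 42 bases between their ends.

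Promoter sequences of 9 of the 10 members were found in RefSeq (GRCm38.p6). The last 150 bases before the RefSeq start of 5 of them are printed because they range from the largest falls to a gene with no call. Capitals mark TATAAA, the core of the TATA box, and TGANTCA, the letters bound by AP-1, where they occurred on either strand.

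Anxa1: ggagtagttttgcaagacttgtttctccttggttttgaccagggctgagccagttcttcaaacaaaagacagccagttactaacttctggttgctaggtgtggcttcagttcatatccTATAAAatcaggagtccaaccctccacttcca
S100a1: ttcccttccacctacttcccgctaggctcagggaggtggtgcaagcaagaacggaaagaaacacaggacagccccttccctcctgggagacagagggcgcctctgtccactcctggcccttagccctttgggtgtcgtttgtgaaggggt
Anxa2: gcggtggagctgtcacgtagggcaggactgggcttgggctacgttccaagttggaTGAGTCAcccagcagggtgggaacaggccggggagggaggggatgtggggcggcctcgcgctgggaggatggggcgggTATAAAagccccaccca
S100a4: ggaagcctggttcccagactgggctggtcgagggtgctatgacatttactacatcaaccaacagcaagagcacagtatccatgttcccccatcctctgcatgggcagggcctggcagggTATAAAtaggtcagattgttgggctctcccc
Anxa5: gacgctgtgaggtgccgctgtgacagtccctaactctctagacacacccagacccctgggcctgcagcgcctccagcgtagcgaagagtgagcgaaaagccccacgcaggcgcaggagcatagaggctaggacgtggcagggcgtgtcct

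In windows from 250 bases before to 50 bases after the start, TATAAA was found in 5 of the 9 members, against 13.6% of 32851 RefSeq promoters. It began 32 bases before the start of Anxa1, 31 bases before that of S100a4 and 30 bases before that of S100a8, but 17 bases before that of Anxa2 and at the start itself in S100a9. TGANTCA was found in S100a11 and Anxa2, against 7.81% of all promoters. The promoters of S100a1 and Anxa5, genes with a large fall and with no call respectively, held neither.

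The 3 mature miRNAs of the overexpressed pair of loci (RefSeq, GRCm38.p6, chromosome 11, plus strand) are printed with the seed, bases 2 to 8, in capitals, since the members were searched for its complement.

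mmu-miR-144-5p (chr11:78073010-78073032): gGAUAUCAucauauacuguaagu
mmu-miR-144-3p (chr11:78073047-78073066): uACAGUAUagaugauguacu
mmu-miR-451a (chr11:78073186-78073207): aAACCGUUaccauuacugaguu

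No longest transcript of the 10 members held the complement of either miR-144 seed, TGATATC or ATACTGT, which occurred in 12.9% and 18.0% of 21951 coding genes. The miR-451a complement, AACGGTT, occurred in 1 member, S100a4, and in 4.33% of coding genes. In S100a4 it lay in exon 2 of the longest transcript (chr3:90605002-90605008, plus strand), within the 5′ UTR, at bases 42 to 48 of 498, just before the start codon at base 52. The site with its flanks, the seed complement in capitals, reads as follows.

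S100a4 site: ctggtctcAACGGTTaccatggc

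These letters are a description of the sequence and not of binding.

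Most members, 8 of the 10, were well expressed. In control TAMs, S100a4 was at 1183 ± 177 FPKM (SD, n = 5), rank 31 of all genes, followed by Anxa1 at 588 ± 20.6, Anxa5 at 397 ± 13.7 and S100a1 at 274 ± 31.6, with no overlap between neighbors in this order. Anxa2 (191 ± 2.48) and S100a11 (190 ± 4.50) overlapped in their ranges. S100a6 (122 ± 18.1) and S100a10 (77.2 ± 5.91) came next, and S100a8 (0.512 ± 0.243) and S100a9 (listed at 0 in every control sample) were at the bottom. In the miR-144 group S100a4 (785 ± 210) and Anxa5 (400 ± 19.5) led, S100a11 (142 ± 15.01) was next, and Anxa2, Anxa1, S100a1 and S100a6, at 105 to 111 FPKM, followed with each overlapping the next. Means in the miR-451a group had the same order.

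**Figure D1:**
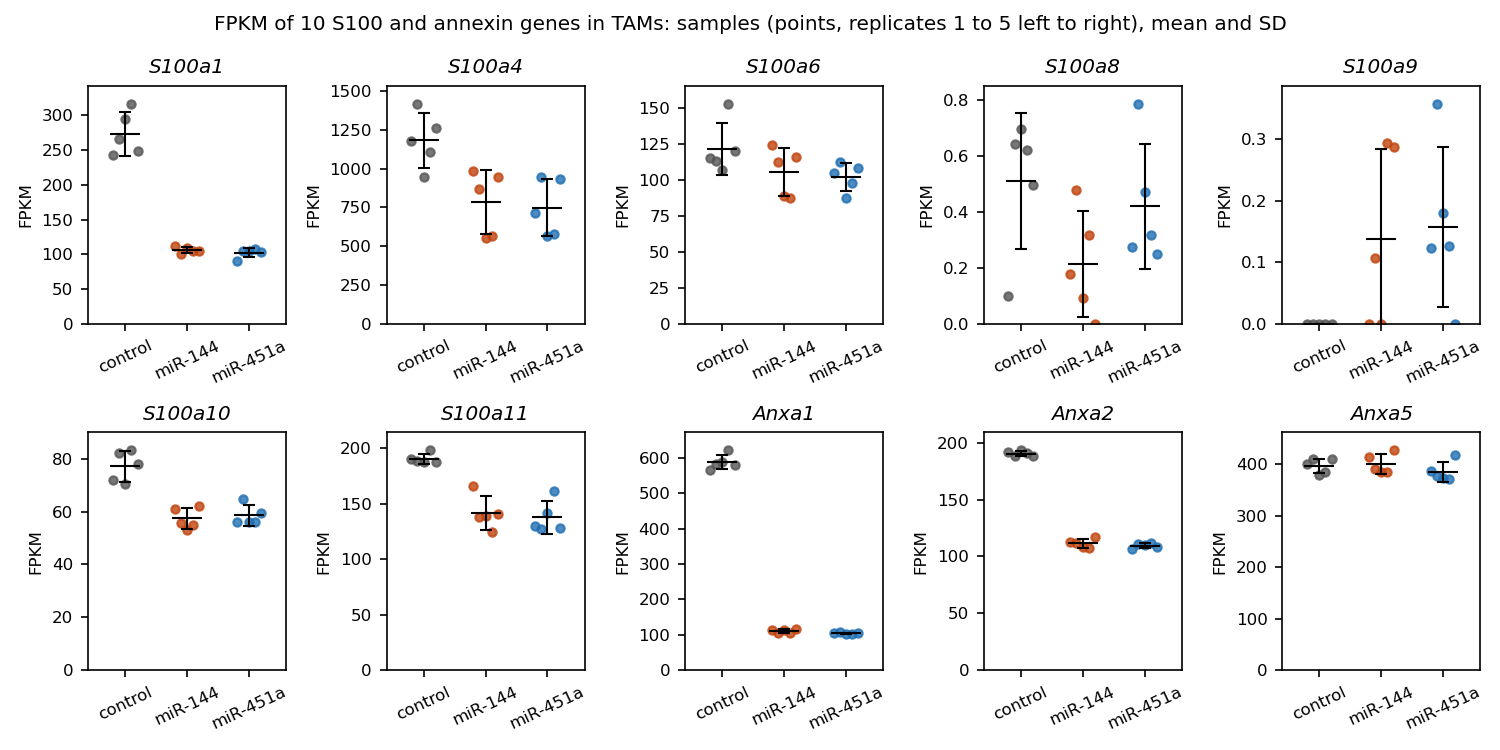
FPKM (y axis, from 0, a separate scale per gene) of each of the 10 genes in the control, miR-144 and miR-451a groups, with 1 point per sample and the mean and SD of 5 samples as the bar. Anxa1 sat at 567 to 622 FPKM in control samples and at 102 to 116 in the 10 other samples, whereas Anxa5 overlapped across the groups.

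The first question was which members differed between TAMs of miRNA-overexpressing tumors and TAMs of control tumors. Of the 8 members that passed the filter of a mean of at least 1 FPKM, 6 were lower in the miR-144 group and none was higher (limma on log2(FPKM + 1), adjusted p under 0.05 over 11419 genes). Among all genes tested, 20.1% were lower and 47.1% were higher in that comparison. The same 6 members, S100a1, S100a4, S100a10, S100a11, Anxa1 and Anxa2, were lower in the miR-451a group and none was higher, where 20.3% of all genes were lower and 48.1% were higher. These counts depended on the scaling. With the median of each sample set equal, all 8 tested members were called lower in both comparisons, beside 3511 lower and 3512 higher of the 11419 genes in the miR-144 group and 3636 and 3577 in the miR-451a group. With quantile normalization the 6 members stayed lower and Anxa5 was called higher in the miR-144 group. Beside them, 3341 genes were lower and 3657 higher of the 11419 in the miR-144 group, and 3425 and 3760 in the miR-451a group. Both comparisons share the 5 control samples. The median log2 difference of the 8 tested members was −0.53 in the miR-144 group and −0.58 in the miR-451a group, against 0.13 and 0.14 over all genes tested.

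In both comparisons 5 of these members were lower than control with no overlap between groups, all of the 6 named except S100a4. Over all genes tested, the share that was lower without overlap was 16.0% for miR-144 and 16.4% for miR-451a.

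Anxa1, which encodes annexin A1, a substrate of the EGF receptor and ligand of formyl peptide receptors, had the largest difference of the members. Control samples 1 to 5 had 567, 583, 588, 622 and 579.5 FPKM. The miR-144 samples had 113, 105, 112, 104 and 116 FPKM, and the miR-451a samples had 105, 106, 102, 102 and 105 FPKM. No miRNA sample came near the lowest control sample. The means were 5.34-fold lower in the miR-144 group (log2 difference −2.41, SE 0.03, adjusted p = 8.49e-17) and 5.64-fold lower in the miR-451a group (−2.48, SE 0.03, adjusted p = 5.60e-17).

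Anxa2, whose protein binds S100A10 and plasminogen at the cell surface, had 192, 188, 194, 191 and 188 FPKM in the control samples. It had 113, 112, 108, 107 and 117 FPKM in the miR-144 samples and 107, 111, 110, 112 and 109 FPKM in the miR-451a samples. Its coefficient of variation in control TAMs, 1.30%, was the smallest of the 8 expressed members, and no sample of a miRNA group reached the controls. The log2 differences were −0.77 (SE 0.03, adjusted p = 2.34e-12) and −0.79 (SE 0.03, adjusted p = 1.58e-12), or means 1.71- and 1.74-fold lower.

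Anxa5, whose protein binds phosphatidylserine and is used as a label of dying cells, did not pass the test. Control samples ranged from 379 to 409 FPKM, miR-144 samples from 384 to 427 and miR-451a samples from 372 to 418. The log2 difference was 0.01 (95% confidence interval −0.08 to 0.10, adjusted p = 0.806) in the miR-144 group and −0.04 (−0.13 to 0.05, adjusted p = 0.368) in the miR-451a group. Its direction depended on the scaling: with the median of each sample set equal it was called lower in both groups (−0.12 and −0.19), and with quantile normalization it was called higher in the miR-144 group (0.12, adjusted p = 0.0397).

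The 3 annexins took different shares of their summed FPKM. Anxa1 made up 50.03 ± 1.24% of the sum in control TAMs, 17.7 ± 0.504% in the miR-144 group and 17.4 ± 0.453% in the miR-451a group. Anxa5 made up 33.8 ± 1.24%, 64.4 ± 0.488% and 64.3 ± 1.16%. The sum itself was 1175 ± 16.2 FPKM in control TAMs, 622 ± 27.2 in the miR-144 group and 599 ± 19.3 in the miR-451a group.

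S100a1, which encodes a protein best known as a regulator of calcium handling in muscle, had 243, 266, 295, 317 and 248 FPKM in the control samples. The miR-144 samples had 112, 101, 109, 105 and 105 FPKM, and the miR-451a samples had 90.6, 104, 104, 108 and 103 FPKM. Every miRNA sample was below every control sample. The log2 differences were −1.35 (SE 0.07, adjusted p = 1.58e-10) and −1.41 (SE 0.07, adjusted p = 8.91e-11).

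S100a10, which encodes the partner of annexin A2 and has lost calcium binding, had 71.8, 82.3, 70.3, 83.3 and 78.0 FPKM in the control samples. It had 61.0, 55.8, 53.1, 54.9 and 62.0 FPKM in the miR-144 samples and 56.0, 64.8, 56.0, 56.1 and 59.6 FPKM in the miR-451a samples. Every miRNA sample was below the lowest control sample. The log2 differences were −0.42 (SE 0.06, adjusted p = 1.82e-05) and −0.39 (SE 0.06, adjusted p = 3.43e-05).

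S100a11, whose protein can bind annexin A1, had 190, 188, 188, 198 and 187 FPKM in the control samples. It had 166, 138, 139, 125 and 140 FPKM in the miR-144 samples and 129, 127, 142, 161 and 128 FPKM in the miR-451a samples. One sample of each miRNA group lay above the others and still below the controls. The log2 differences were −0.43 (SE 0.07, adjusted p = 8.58e-05) and −0.47 (SE 0.07, adjusted p = 3.27e-05). S100a11 shares 41.1% of the 50-base stretches of its transcript with other genes, most with Gm12854, which was listed at 7.22 to 12.7 FPKM, so some of its reads may have been assigned to that gene.

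S100a4, which encodes a protein known for binding non-muscle myosin and for its link to cell motility and metastasis, was the most abundant member in every group. Control samples had 1177, 1421, 945, 1110 and 1261 FPKM. The miR-144 samples had 985, 872, 552, 568 and 949 FPKM, and the miR-451a samples had 714, 949, 567, 577 and 937 FPKM. Replicates 3 and 4 were the lowest samples of all 3 groups, and the highest miRNA samples overlapped with the lowest control sample. The log2 differences were −0.62 (SE 0.20, adjusted p = 0.0114) and −0.68 (SE 0.20, adjusted p = 0.00632). GENCODE M21 lists the gene Gm42674 over S100a4, with 56.3% of the 50-base stretches shared with other genes, and it was listed at 0 in all 15 samples.

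S100a6 (calcyclin), a gene often induced with growth, ranged from 107 to 153 FPKM in control samples, from 87.0 to 124 in the miR-144 group and from 87.0 to 112 in the miR-451a group. It did not pass the test in either comparison, with log2 differences of −0.21 (95% confidence interval −0.45 to 0.04, adjusted p = 0.122) and −0.25 (−0.49 to −0.01, adjusted p = 0.0652). With the median of each sample set equal it was called lower in both (−0.34 and −0.39). The highest control value, 153 FPKM in replicate 4, stood apart from the other 4, which were at 107 to 120.

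S100a8 and S100a9, the subunits of calprotectin, did not pass the filter. S100a8 had 0.0976, 0.644, 0.698, 0.623 and 0.496 FPKM in the control samples. It had 0.177, 0.478, 0.0912, 0.317 and 0 FPKM in the miR-144 samples and 0.276, 0.788, 0.470, 0.316 and 0.247 FPKM in the miR-451a samples. S100a9 was listed at 0 in all 5 control samples, in 2 miR-144 samples and in 1 miR-451a sample, and its highest value was 0.358 FPKM. At the depth implied by the steps between low values, 3 fragments of S100a8 correspond to 0.199 to 0.388 FPKM, and 9 of 15 samples were above that floor. For S100a9 only 2 of 15 were above the floor of 0.191 to 0.372 FPKM, so differences between values this low could not be resolved at this depth. In a fit without the filter neither gene passed the test, with adjusted p of 0.108 and 0.696 for S100a8 and of 0.139 and 0.0813 for S100a9.

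**Figure D2:**
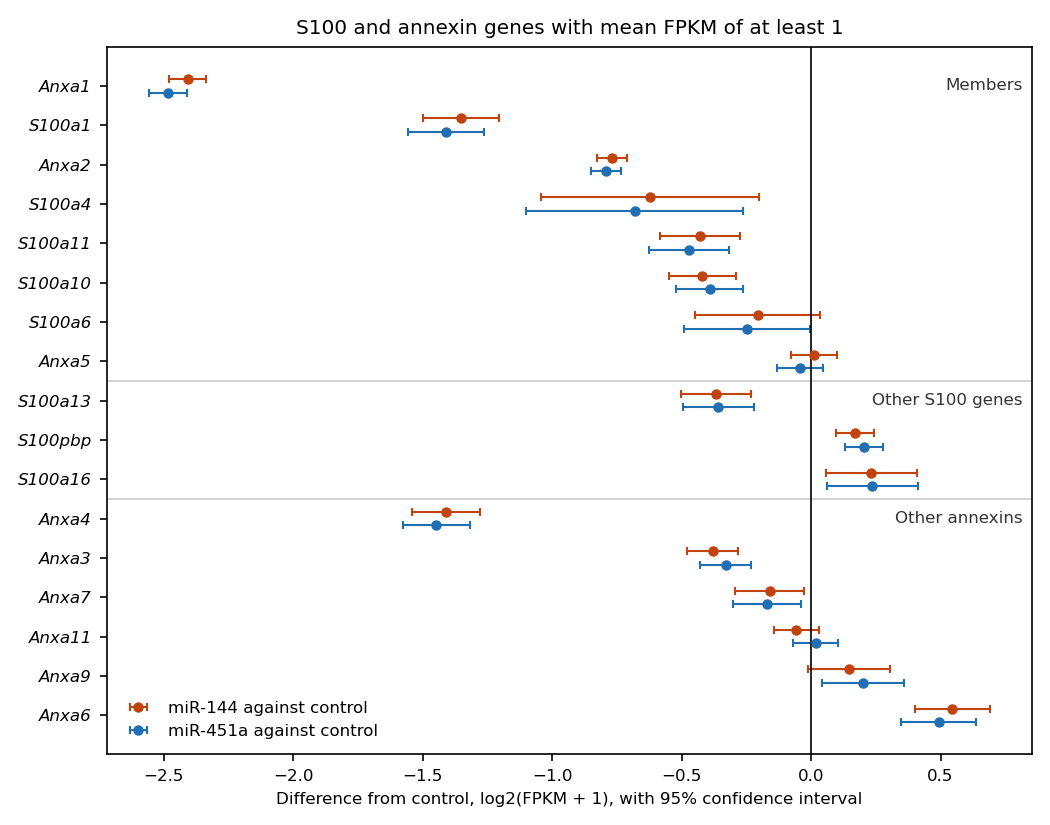
Difference from control in log2(FPKM + 1) (x axis) with its 95% confidence interval for the 8 tested members and for the other tested S100 and annexin genes (y axis), for miR-144 and miR-451a. Anxa1 lay furthest to the left of all genes shown, at −2.41 and −2.48, and Anxa6 furthest to the right.

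The pair of genes for the annexin A2 and S100A10 complex was compared as a ratio within each sample, which a single scaling factor per sample leaves as it is. The ratio of Anxa2 to S100a10 was 2.48 ± 0.218 in control TAMs (2.29 to 2.75), 1.95 ± 0.0777 in the miR-144 group (1.85 to 2.03) and 1.88 ± 0.113 in the miR-451a group (1.71 to 1.99). The control samples did not overlap with either miRNA group. The mean log2 ratio fell by 0.35 in the miR-144 group and by 0.40 in the miR-451a group, each with a two-sided exact permutation p of 0.00794 (0.0119 after Benjamini-Hochberg adjustment over 3 tests), which is the smallest that 5 against 5 samples can give. The miR-451a and miR-144 groups differed by −0.05 (exact permutation p = 0.31, also after adjustment). With quantile normalization, which is not a single factor, the fitted log2 differences came closer together, at −0.63 for Anxa2 and −0.40 for S100a10 in the miR-144 group and at −0.66 and −0.37 in the miR-451a group. The ratio of S100a8 to S100a9 was not compared between groups, because S100a9 was listed at 0 in all control samples, and both genes were under 1 FPKM in every sample.

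**Figure D3:**
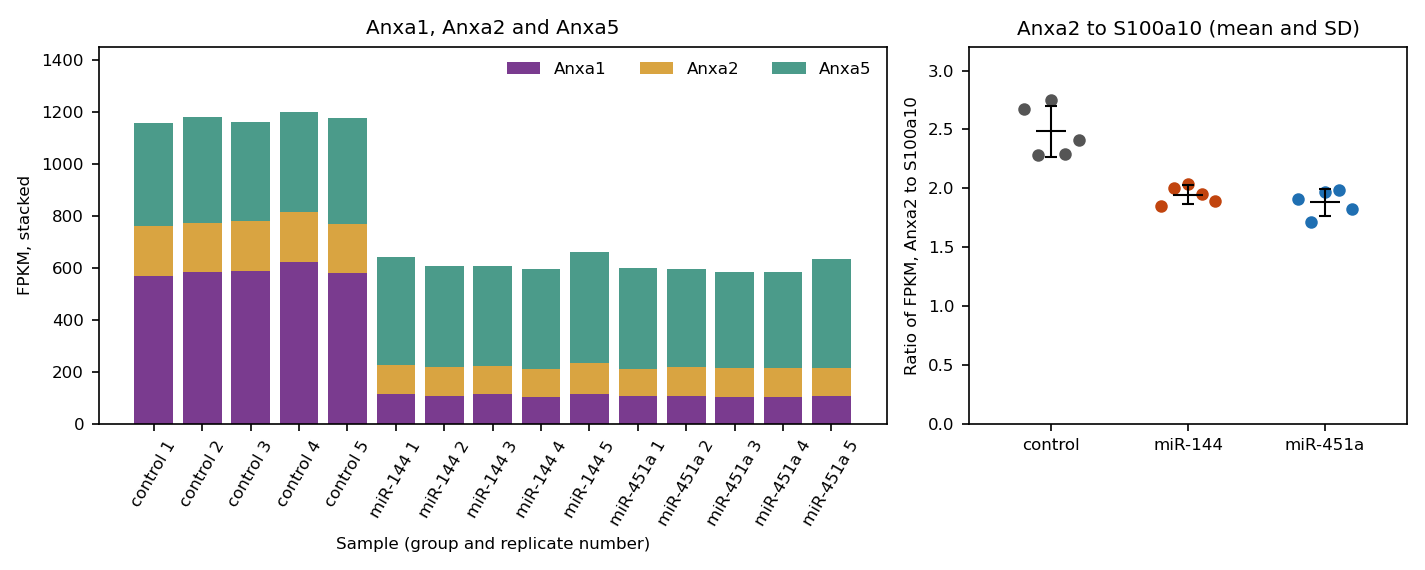
Left, FPKM of Anxa1, Anxa2 and Anxa5 stacked for each of the 15 samples, where the control bars reach 1159 to 1199 FPKM and the others 585 to 660. Right, the ratio of Anxa2 to S100a10 FPKM per sample (points) with mean and SD per group, where every control sample is above 2.28 and every miRNA sample is at or below 2.03.

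The second question was whether the miRNA groups differed from each other. None of the members passed the test, and neither did any gene of the 11419 (0% called by limma, 596 genes at an unadjusted p under 0.05, smallest adjusted p = 0.0752). Among the members, Anxa1 alone had an unadjusted p under 0.05 (110 ± 5.04 against 104 ± 1.96 FPKM, log2 difference −0.08, unadjusted p = 0.0416, adjusted p = 0.946). The 95% confidence interval of the difference between miR-451a and miR-144 was −0.21 to 0.09 for S100a1, −0.10 to 0.16 for S100a10 and −0.08 to 0.04 for Anxa2. It was wider for S100a4, from −0.48 to 0.36, so a difference of that size was not detectable.

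Members also varied within the groups, and this variation was shared by some of them. After the group means were removed, the deviations of S100a4 over the 15 samples had a Pearson r of 0.76 with those of Anxa5, 0.75 with S100a10 and 0.71 with S100a6. Replicates 3 and 4 had the lowest S100a4 and the lowest Anxa5 values in every group. S100a6 and S100a10 had an r of 0.74. By contrast, S100a4 had an r of −0.03 with S100a11 and of −0.21 with S100a1, although S100a1 and S100a4 lie in the same cluster. These are descriptions, since all genes of a sample share its library and its depth.

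**Figure D4:**
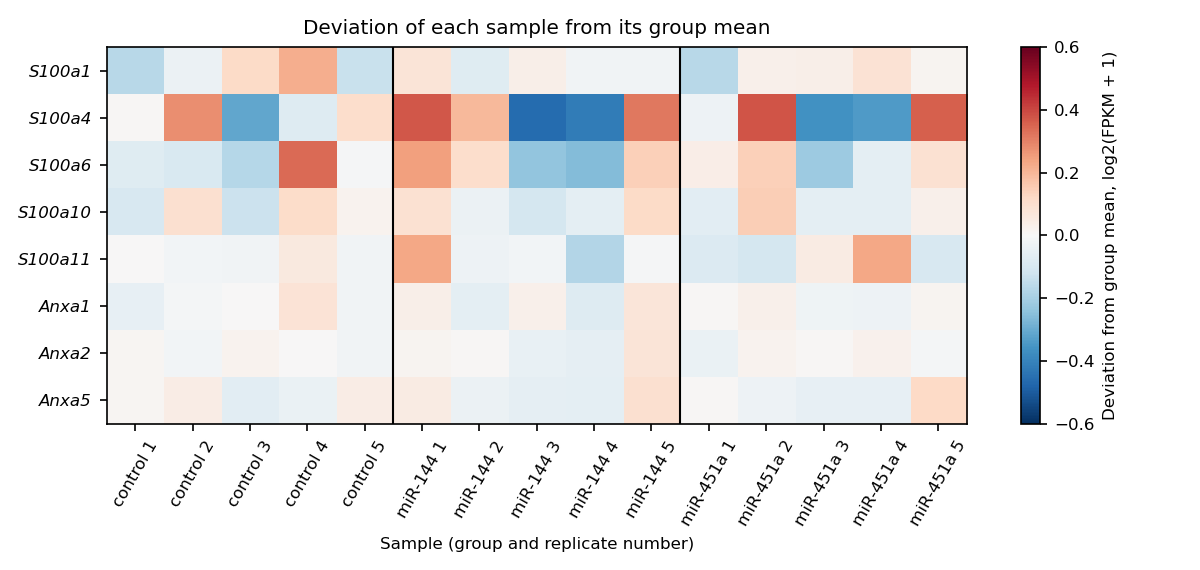
Deviation of each of the 15 samples (x axis) from its group mean for the 8 expressed members (y axis), as color on a log2(FPKM + 1) scale. S100a4 was lowest in replicates 3 and 4 of each group, S100a6 was highest in control replicate 4, and Anxa1 and Anxa2 varied least.

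The genes whose within-group deviations were most like those of S100a4, among the genes tested, were Stx3 (r = 0.96), Ttll1 (r = 0.96) and Slfn1 (r = 0.95). For Anxa5 they were Ccl4 (r = 0.92), Cxcr4 (r = 0.92) and 1700025G04Rik (r = 0.91). The nearest genes to Anxa1 were Mitd1 (r = 0.89), Mmp13 (r = 0.83) and Stx8 (r = 0.81). S100a1 was nearest to Tsg101-ps, Slc15a3 and Uqcrb (0.85 to 0.88), and S100a10 to Cox7a2l, Zc3h13 and Fam96a (0.87 to 0.89). S100a6 was nearest to Gm25596, Atp5c1 and Cd52 (0.83 to 0.91), S100a11 to Olfml2b, AC122367.3 and Timm21 (0.87 to 0.90), and Anxa2 to Gm4735, Pgm2 and Tbl3 (0.77 to 0.79). All of these genes were picked for having the largest r among the 11419 genes tested, over 15 samples. The largest r of so many genes can be high by chance alone, and that chance level was not computed. The lists are therefore a description, and whether any of these pairs is related was not tested.

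Along the S100 cluster, expressed genes lay beside genes listed near or at 0. S100a1 and its divergent neighbor S100a13 (39.5 ± 2.37 FPKM in control TAMs) were both expressed and both lower in the miRNA groups. S100a13, whose protein takes part in the release of FGF1, had log2 differences of −0.37 (SE 0.06, adjusted p = 0.000126) and −0.36 (SE 0.06, adjusted p = 0.000146). S100a3 and S100a5, on either side of S100a4, did not exceed 0.0723 FPKM and were listed at 0 in all samples, respectively. S100a16 was called higher in both groups (0.23 and 0.24), but with median centring or quantile normalization it was not called.

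**Figure D5:**
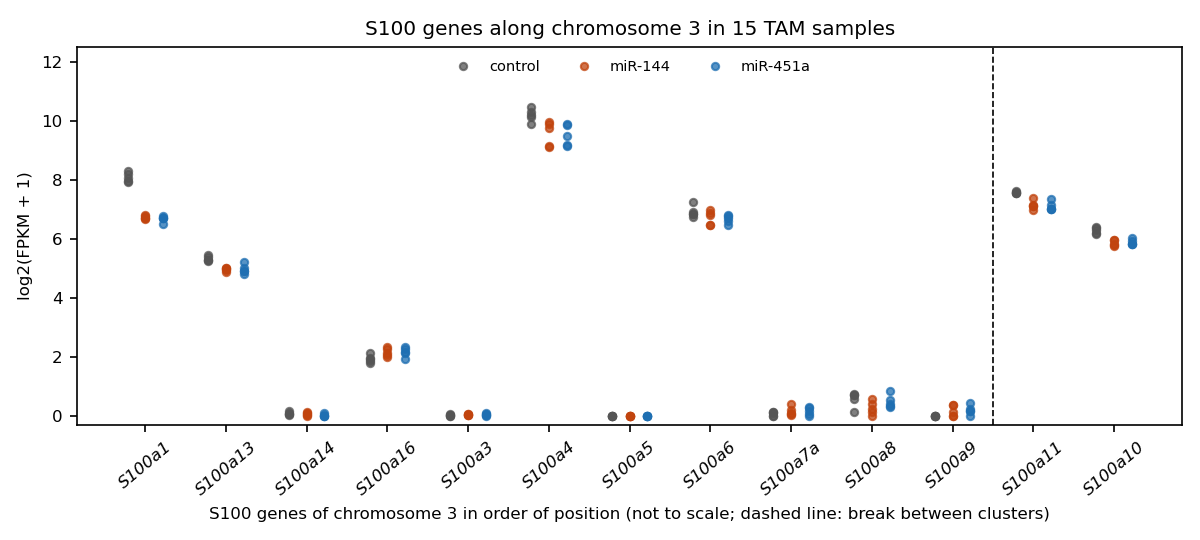
log2(FPKM + 1) (y axis) of the S100 genes of chromosome 3 in order of position (x axis, not to scale), with 1 point per sample for control, miR-144 and miR-451a. S100a4 stands above its neighbors S100a3 and S100a5, which were near 0, and the points of S100a1 and S100a13 are higher in control samples.

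Of 10 other genes listed with the S100 family, 7 were under 1 FPKM in all samples. Besides S100a13 and S100a16, S100pbp, which encodes a binding protein of S100P and not an S100 protein, was called higher in both comparisons (0.17 and 0.20), again not with median centring or quantile normalization.

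Among 6 other annexins tested, 3 were lower in both comparisons and 1 was higher in both. Anxa4 was at 186 ± 3.89 FPKM in control TAMs and at 69.5 ± 6.06 and 67.8 ± 5.64 in the miRNA groups (log2 differences −1.41 and −1.45, adjusted p = 2.35e-11 and 1.64e-11). Anxa3 also fell (−0.38 and −0.33). Anxa7 was called lower (−0.16 and −0.17), though not after rescaling to TPM. Anxa6, a large annexin with a doubled core, was higher, at 116 ± 8.09, 170.5 ± 12.9 and 165 ± 14.7 FPKM (0.55 and 0.49). Anxa9, named after its values were seen, passed the test in the miR-451a group (0.20, adjusted p = 0.0249) and not in the miR-144 group (0.15, adjusted p = 0.0915), nor in either with median centring or quantile normalization, whereas after rescaling to TPM it was called higher in both (0.23 and 0.30).

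Of 5 tested receptors listed for S100 proteins and annexin A1, 3 were lower in both comparisons. Cd36, a scavenger receptor that takes up fatty acids and can bind S100A8 and S100A9, was at 200.3 ± 11.9 FPKM in control TAMs, 45.4 ± 5.17 in the miR-144 group and 41.8 ± 2.19 in the miR-451a group (log2 differences −2.12 and −2.23). Bsg (basigin) was lower by −0.24 and −0.56, the former not after rescaling to TPM, and Alcam by −0.29 and −0.38. Fpr2, a receptor of annexin A1, was at 0 to 0.0323 FPKM in control samples, 1.47 to 2.92 in miR-144 samples and 1.13 to 2.38 in miR-451a samples. Since Fpr2 passed the filter only through the miRNA groups, where it was high, its values are given with no test. Fpr1 was under the filter, at 0 to 0.0762 FPKM in control samples and at 0.797 to 1.52 in the others, and Ager, the receptor for advanced glycation end products, did not exceed 0.404 FPKM. Tlr4, a receptor of S100A8 and S100A9, did not pass the test (adjusted p = 0.229 and 0.0584), with 5.03 to 29.8 FPKM in control samples, 3.62 to 20.5 in miR-144 samples and 3.73 to 5.10 in miR-451a samples, but it was called lower in the miR-451a group with median centring or quantile normalization. Fpr1, Ager and Tlr4 were named after their values were seen.

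Of 8 tested partners, 4 were lower and 2 were higher in both comparisons. Ahnak2 was at 23.2 ± 0.352 FPKM in control TAMs and at 5.34 ± 0.235 and 5.14 ± 0.0930 in the miRNA groups (−1.93 and −1.98). Ahnak, the large scaffold that binds the annexin A2 and S100A10 complex, fell from 162 ± 2.50 to 104 ± 7.32 and 110 ± 12.9 FPKM (−0.64 and −0.57). Myof, a ferlin of membrane repair, fell from 70.1 ± 2.34 to 32.4 ± 1.13 and 30.8 ± 1.32 FPKM (−1.09 and −1.16). Myl9, a myosin light chain, was higher (1.12 and 1.17). Vim, lower by −0.38 and −0.50, and Myh9, the S100A4-binding myosin heavy chain, higher by 0.49 and 0.53, were named after their values were seen.

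Other calcium-binding genes did not show 1 direction. Of 13 tested EF-hand and calpain genes, 4 were higher and 5 lower in the miR-144 group and 4 higher and 3 lower in the miR-451a group, but with median centring none was higher and 7 and 8 were lower. Calm2, a calmodulin gene, was lower under each scaling (−0.50 and −0.52 as deposited). Chp1 (0.22 and 0.20), Capn2 (0.16 and 0.17) and Calm3 (0.15 and 0.14) were called higher but not with median centring, nor with quantile normalization for Chp1 in the miR-451a group (adjusted p = 0.0849) and Capn2 in the miR-144 group (adjusted p = 0.0621). Of 3 tested copines, 2 were higher, of which Cpne3 (0.43 and 0.44) was called under each scaling and Cpne2 (0.14 and 0.10) was not with median centring or quantile normalization.

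Markers of cell types were read for the same 15 samples, because in bulk RNA fewer cells of a type and less RNA per cell cannot be told apart. All 10 macrophage marker rows (9 genes, Itgam in 2 rows) were expressed. Of these, 8 were higher in both miRNA groups (1 of the Itgam rows not in the miR-451a group with median centring, adjusted p = 0.0553). Cd68, named after its values were seen, was lower in both. Fcgr1 (2.69 and 2.64) and C1qa (1.96 and 2.07) had the largest log2 differences of this list. Adgre1, one of the markers of the sort, was at 137 ± 4.96, 361 ± 24.7 and 354 ± 19.6 FPKM. Alveolar macrophage markers summed to 150 to 170 FPKM in control samples, 21.3 to 23.8 in miR-144 samples and 19.4 to 21.3 in miR-451a samples. Fabp4 was lower, and Ear2 was at 35.6, 0.230 and 0.339 FPKM on average (past the filter only through the control group, where it was high). Under the filter, Siglecf was at 2.26, 0.357 and 0.355 FPKM on average and Car4 at 1.24 FPKM in control samples and at 0 in the others. Ear1 and Krt79 were at 0 in all samples. Kupffer cell markers summed to 3.30 to 3.77, 17.1 to 50.1 and 16.0 to 47.3 FPKM, with Cd5l higher (1 of 1 tested) and the defining marker Clec4f listed at 0 in all samples. Neutrophil markers summed to 78.8 to 95.9, 51.0 to 56.8 and 48.7 to 57.5 FPKM, with Csf3r and Mmp8 lower (2 of 2 tested), Retnlg at 0 in all samples and Ly6g at most 0.0594 FPKM. Monocyte markers summed to 51.6 to 63.2, 56.8 to 79.3 and 58.8 to 101 FPKM, with 3 of 4 tested higher. The most abundant, Fn1, named after its values were seen, was not called (53.0, 51.3 and 54.2 FPKM on average, limma adjusted p = 0.756 and 0.993). Plac8 and Vcan were higher, F13a1 was at 0.325, 5.95 and 9.84 FPKM on average (past the filter only through the miRNA groups, where it was high) and Ly6c2 was at most 0.403 FPKM. Fibroblast markers summed to 106 to 131, 141 to 209 and 180 to 231 FPKM, with 3 and 5 of 5 tested higher, the latter count including Dcn, which passed the filter only through the miRNA groups. Of the peritoneal macrophage list Icam2 (1 of 1 tested) was called higher in the miR-451a group but not with median centring or quantile normalization. Of the endothelial list Kdr (1 of 1 tested) was called higher in both groups, but not in the miR-144 group with quantile normalization (adjusted p = 0.0752). Of 8 hepatocyte and hepatoma markers, 7 were listed at 0 in all samples, and no dendritic cell, T cell or B cell marker reached 1 FPKM. A value listed at exactly 0 in this table, as for Clec4f and the hepatocyte genes, may be a failed estimate and does not show that the RNA was absent. The part of these markers in the differences of the S100 and annexin genes was not tested.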

How the data were processed

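RNA-seq was analysed in 15 samples, 5 per group, and the labels gave each sample's group and replicate number and no batch. TAM RNA was sequenced on a HiSeq machine, and the authors deposited gene-level FPKM. Per the labels, the submitters' processing notes name FastQC 0.11.2, STAR and StringTie; the build and annotation are not given in the sources used here. All sample columns were mapped. Depth is not in the files: low values of genes with 1 transcript over 1000 bases imply a depth of 15.5 to 30.3 M fragments per sample, but only 36.3% to 49.6% of them lay within 5% of a step (10% by chance), so counts were not recovered. Floors of 3 fragments cover counting error only. Samples of a group all differed from each other, with at most 7 identical values above 0 in a pair.

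Log2(FPKM + 1) was fitted in limma 3.58.1 (R 4.3.3) with all 3 groups together and a trend of variance on mean, for 11419 genes averaging 1 FPKM or more, and p-values were adjusted by Benjamini-Hochberg over them. Fold changes on this scale understate those of low genes. Ratios within samples were compared with exact permutation tests. Members and lists were chosen with earlier results of these data known. Named beside the 10 members were up to 4 genes per list with a call in both comparisons with control and the largest mean difference, defining cell type markers, and the 3 genes nearest to each member by within-group deviation. Alternatives were a pseudocount of 0.1, other filters, median centring, quantile normalization, TPM, the replicate block, no trend, fits over 2 groups, a minimum log2 difference of 1 and each sample left out. Of the gene identifiers, 99.7% were found in GENCODE M21 and 86.6% of these had the same symbol; the authors may have used another build. The fit was tested on simulated data with known changes. Python 3.11.15, numpy 2.4.6, pandas 2.3.3 and matplotlib 3.10.9 were used.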

Additional observations from a re-analysis of the deposited data

Results flagged for a closer look

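Among 32 groups of 5 values tested for a single sample far from the other 4, 2 passed the cutoff. Chance gives about 1 in 20, or 1.6 groups, so the count is near that of chance. Control replicate 4 had 153 FPKM of S100a6, next to 120 FPKM in the nearest sample, and 198 FPKM of S100a11, next to 190 FPKM. The gaps were 0.713 and 0.718 of the range of the group, just past the cutoff of 0.71.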

How the results depend on the processing

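S100a1, S100a4, S100a10, S100a11, Anxa1 and Anxa2 stayed lower and past the threshold in both comparisons with control under every alternative but the minimum log2 difference of 1, which left 2 members (S100a1 and Anxa1) and 888 and 944 genes called. A minimum mean of 5 FPKM gave 4776 and 4821 calls, from fewer genes tested. Anxa5 reversed in the miR-144 group with median centring (−0.12), a setting that subtracts 1 constant per sample and so moves all genes of a comparison alike. S100a6 was also called lower in the miR-451a group than in control in the fit over 2 groups (adjusted p = 0.0430) and without control replicate 3 (adjusted p = 0.0453). Of 600 values of members under alternatives, 585 kept their call. These 600 leave out S100a8 and S100a9. They include the fits with 1 sample left out and the comparison between the miRNA groups, where no member was called under any setting. Leaving out 1 sample gave 7379 to 7673 and 7526 to 7806 calls against control, with 6 and 6 to 7 members called, and 0 to 2 calls between the miRNA groups (2 without miR-144 replicate 4, miR-144 replicate 5 or miR-451a replicate 3, 1 without miR-451a replicate 5). S100a4 ranged from −0.71 to −0.51 and from −0.78 to −0.59. Over all alternatives its limma adjusted p ran from 0.000164 to 0.0388 and from 7.70e-05 to 0.0247. Median centring changed the share of calls that were higher from 70.1% and 70.3% to 50.01% and 49.6%, quantile normalization to 52.3% in both and TPM to 76.5% and 77.3%. Samples with the same number had correlated deviations over 0.1 in 8 of 15 pairs (mean r 0.08, −0.15 to 0.26, against 14 of 60 other pairs, mean r −0.02). By comparison, the r of same-number pairs was 0.07 to 0.26 for miR-451a with control, −0.13 to 0.11 for miR-144 with control and −0.15 to 0.24 between the miRNA groups. A shared effect of the number was thus not excluded. No source says that the numbers pair mice, so they were not taken as a pairing in the main fit. With that number as a replicate block, 7711 and 7859 genes and the same count of 6 members were called, and the Anxa2 to S100a10 log2 ratio was lower by −0.35 and −0.40 (exact sign-flip test over 5 pairs, adjusted p = 0.0938), where 0.0625 is the smallest unadjusted p possible. FPKM without counts limits S100a8 and S100a9, which have no value under most alternatives.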
